A study of Rattus norvegicus with 6 samples.

Results

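The 50 genes described here encode the machinery of autophagy and were listed by name, from the kinase complex that starts the process to the proteins that join its vesicles to the lysosome. Their transcripts were measured in 3 Cy/+ and 3 +/+ kidney samples of male Han:SPRD rats, with 1 oligonucleotide array per sample. Cy/+ rats carry one mutated copy of Anks6 and develop a slowly progressing polycystic kidney disease, and +/+ rats are the normal animals of the same colony. The sample labels give an age of 10 weeks for both genotypes and the methods of the study a younger one, and neither names a treatment for these samples. Whether the 3 samples of a genotype are 3 different rats is not stated in the sources used here. The p-values therefore refer to the spread among the samples as given, and part of it may be technical. Of the 50 genes, 46 had a probe set annotated to them alone and 45 of these reached the signal set for testing, among 10645 genes tested of 14217 named on the array. Atg4c, Map1lc3b, Gabarapl2 and Nbr1 had no probe set of their own, and the signals of Stx17, a SNARE of the autophagosome, stayed between 28.7 and 35.4 on the 6 arrays, below the 77.8 needed for testing. Each gene is represented by its brightest probe set, and its values are given as linear signal intensities or as differences between log2 signals, Cy/+ minus +/+. Where a gene is said to stand at a value, that value is its log2 fold change.

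In autophagy a cell encloses part of its cytoplasm in a growing double membrane, the autophagosome, which fuses with a lysosome and is degraded with its content. A kinase complex around ULK1 starts the process, a lipid kinase complex around Beclin 1 marks the site, ATG2 and ATG9 supply lipid, and a pair of ubiquitin-like conjugation systems attach proteins of the LC3 and GABARAP family to the membrane, where receptors bring in the cargo. In the kidney, tubular epithelium and podocytes are known to depend on autophagy to clear damaged organelles. A transcript level does not measure autophagic flux, and LC3 and several receptor proteins are themselves consumed in the process.

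In Cy/+ kidneys 12 of the 45 autophagy genes were higher, 9 were lower and 24 stayed short of the threshold (limma with Benjamini-Hochberg adjustment over all 18625 probe sets tested, adjusted p under 0.05). The largest rise was that of Foxo3, a transcription factor that induces autophagy genes, at 0.89 on the log2 scale, and the largest fall was that of Pink1, the kinase that marks damaged mitochondria for removal, at -1.48. The higher genes made up 26.7% of the members, against 37.4% of all genes tested, and the lower genes 20%, against 29.3% of all genes. The arrays of the genotypes did not overlap for 29 members, or 64.4%, against 74.6% of all genes, and lay higher in Cy/+ kidneys for 17 of them and lower for 12. The median log2 fold change of the members was 0.013, beside 0.090 for all genes, and the median size of the change regardless of direction was 0.24, beside 0.48. At the brightest probe sets only Pink1 changed more than 2-fold, which is 2.22% of the members and compares with 22.4% of all genes. Dimmer tested probe sets of Atg12 (-1.01 and -1.48) and Sqstm1 (-1.03) also changed more than 2-fold. The split of 12 higher and 9 lower depended on the scaling between arrays: it was 8 and 11 with quantile normalization and 7 and 13 when arrays were centred on their medians. Without Cy/+ replicate 2 it was 7 and 6, without +/+ replicate 1 it was 8 and 4, and without +/+ replicate 2 or 3 it was 7 and 5, whereas without Cy/+ replicate 1 it was 14 and 13.

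**Figure D1:**
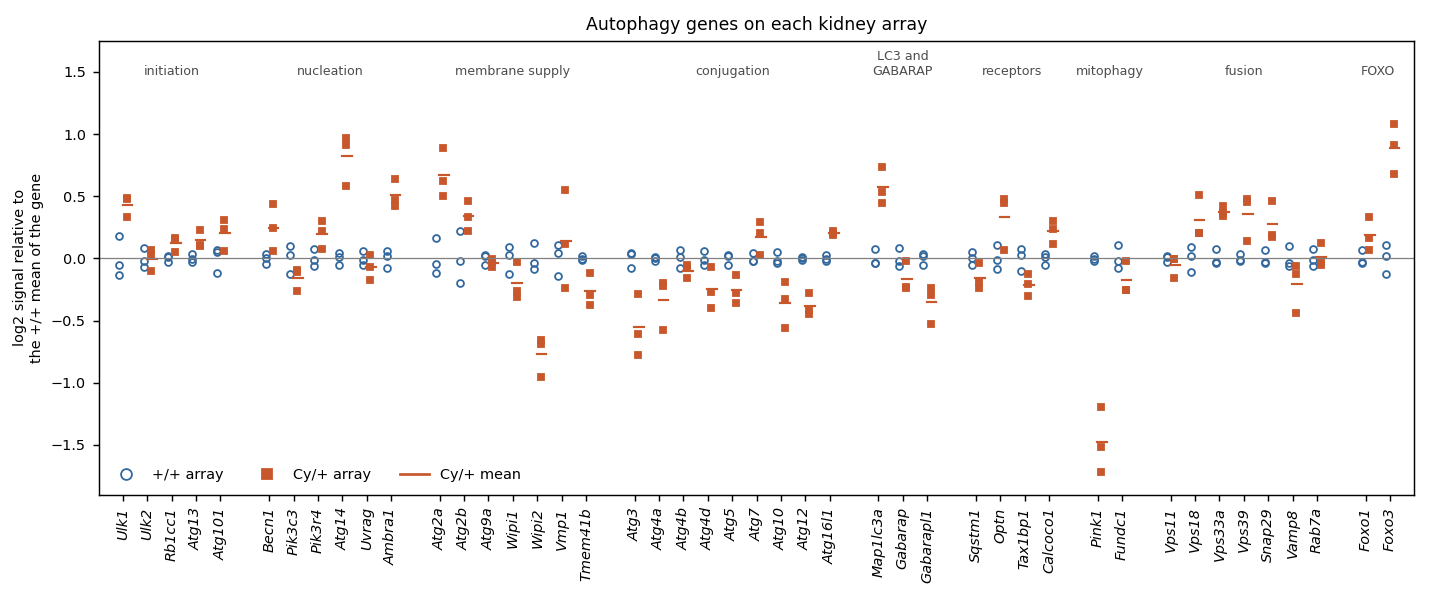
Log2 signal of each of the 45 tested autophagy genes on each array, relative to the mean of the 3 +/+ arrays, ordered by step of the pathway (circles, +/+; squares, Cy/+; bar, mean of Cy/+). Pink1 lies lowest and Foxo3 highest, and most other genes stay within 0.5 of the +/+ mean.

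The kidneys of the genotypes also differed in their cell markers and in signs of RNA quality. All 20 tested markers of the proximal tubule were lower in Cy/+ kidneys, with a summed signal of 186602 to 195317 on the +/+ arrays and of 26302 to 69057 on the Cy/+ arrays. All 10 tested markers of injured tubules were higher, as were 5 of 7 of fibroblasts and pericytes and 9 of 10 of macrophages and other leukocytes. The higher leukocyte markers include Cd3e and Cd3g, tested only because of their Cy/+ signals. Their mean log2 signals in +/+ kidneys, 6.01 and 5.80, lay under the 6.28 needed for testing. The proximal tubule markers Slc5a12 and Acmsd were tested only because of their +/+ signals, with Cy/+ means of 5.95 and 6.05. For Actb, control probe sets at the 3' end gave 1.51 ± 0.0057 (SD, n = 3) times the signal of those at the 5' end in +/+ kidneys and 3.22 ± 0.26 times (SD, n = 3) in Cy/+ kidneys, and for Gapdh 1.18 ± 0.036 and 1.85 ± 0.10 times (exact two-sided permutation test, p = 0.1 for each, the smallest that 3 arrays against 3 allow). The 24 probe sets of spiked poly-A controls and the 18 of hybridization controls all had higher signals on the 3 Cy/+ arrays than on any +/+ array. The part of these differences in the values of the autophagy genes was not tested. In whole kidney, fewer cells of a type and less RNA per cell cannot be told apart.

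Of the 5 genes of the initiation complex, Ulk1 was higher in Cy/+ kidneys and the other 4 did not pass. That is 20% higher, against 37.4% of all genes. Ulk1, the kinase that is activated by AMPK and inhibited by mTORC1, had signals of 392, 371 and 459.8 in +/+ and 511.5, 567 and 567 in Cy/+ kidneys, a log2 fold change of 0.43 (SE 0.11, adjusted p = 0.00966). Every Cy/+ array lay above every +/+ array. Its relative Ulk2, which can stand in for it, had signals of 593, 535 and 553 in +/+ and 572, 587 and 521 in Cy/+ kidneys and a log2 fold change of -0.0016 (adjusted p = 0.988), and its arrays overlapped. Rb1cc1, the scaffold also called FIP200, and Atg13, the regulatory subunit, lay above +/+ on every Cy/+ array but did not pass, at log2 fold changes of 0.12 (adjusted p = 0.177) and 0.14 (adjusted p = 0.147). Atg101, the partner of ATG13, stood at 0.20 (adjusted p = 0.111), and at 0.27 without Cy/+ replicate 1 (adjusted p = 0.0289). The direction of Ulk1 depended on the probe set. A dimmer probe set of the gene had signals of 129, 128 and 145 in +/+ and 83.1, 100.4 and 109 in Cy/+ kidneys and was lower in Cy/+ kidneys, at -0.46 (adjusted p = 0.0146).

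Of the 6 genes of the nucleation complex, Atg14 and Ambra1 were higher in Cy/+ kidneys, none was lower, and the median log2 fold change was 0.22. The higher genes are 33.3%, against 37.4% of all genes, and of all genes 29.3% were lower. Atg14, the subunit that directs the lipid kinase to the autophagosome, had signals of 119, 114 and 122 in +/+ and 177, 232 and 222.5 in Cy/+ kidneys, an average rise of 1.77-fold. Its log2 fold change was 0.82 (SE 0.12, adjusted p = 0.000945). Ambra1, a regulator that binds Beclin 1, had signals of 310.4, 318 and 291 in +/+ and 409.5, 478 and 424 in Cy/+ kidneys and a log2 fold change of 0.51 (SE 0.096, adjusted p = 0.00264). Neither gene overlapped between the genotypes at its brightest probe set, and Ambra1 passed under all 19 alternative settings and Atg14 under the 18 in which it was tested, being too dim for the filter at the 60th percentile. For Ambra1 a dimmer probe set, too weak on average to be tested, lay the other way. Its signals were 99.4, 70.4 and 73.7 in +/+ and 50.8, 56.25 and 41.4 in Cy/+ kidneys. Becn1, which encodes Beclin 1 itself, had signals of 1198, 1156 and 1224 in +/+ and 1240, 1416 and 1613 in Cy/+ kidneys. All 3 Cy/+ values lay above +/+, but they spread widely, and the log2 fold change of 0.25 (adjusted p = 0.0770) did not pass. Without Cy/+ replicate 1, whose value was the closest to +/+, it was 0.34 and passed (adjusted p = 0.00906), and without replicate 3, whose value was the highest, it was 0.15 (adjusted p = 0.202). The catalytic subunit Pik3c3 (-0.15, adjusted p = 0.199), its regulatory subunit Pik3r4 (0.20, adjusted p = 0.0966) and Uvrag (-0.071, adjusted p = 0.493), which takes the place of ATG14 in the endosomal form of the complex, did not pass.

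The 7 genes of membrane supply and lipid transfer divided into 2 higher, 2 lower and 3 that did not pass. Each direction holds 28.6%, against 37.4% higher and 29.3% lower over all genes. Wipi2, which binds the lipid made by the nucleation complex and recruits ATG16L1, was lower in Cy/+ kidneys. Its signals were 605, 542.5 and 526 in +/+ and 287, 346 and 353 in Cy/+ kidneys, a log2 fold change of -0.77 (SE 0.11, adjusted p = 0.000862). Its relative Wipi1 had signals of 523, 500.5 and 449.5 in +/+ and 479.7, 409 and 396 in Cy/+ kidneys, which overlapped. Its log2 fold change of -0.20 (adjusted p = 0.141) did not pass, and was -0.29 without Cy/+ replicate 1 (adjusted p = 0.0287). Atg2a, one of the bridge-like lipid transfer proteins of the growing membrane, had signals of 312, 256 and 269.8 in +/+ and 394, 515.5 and 427 in Cy/+ kidneys, a log2 fold change of 0.67 (SE 0.13, adjusted p = 0.00333). The +/+ and Cy/+ values of Atg2a lay apart, and the call held under all 19 alternatives. Its paralog Atg2b had signals of 548, 464 and 411 in +/+ and 594, 649 and 547 in Cy/+ kidneys and passed narrowly, at 0.34 (SE 0.13, adjusted p = 0.0486), with an overlap between the genotypes. Without Cy/+ replicate 1 or 2 or +/+ replicate 2 or 3, Atg2b no longer passed, at 0.24 to 0.34 (adjusted p = 0.0650 to 0.153), and a dimmer probe set was lower in Cy/+ kidneys, at -0.47 (adjusted p = 0.0229). Tmem41b, a lipid scramblase of the endoplasmic reticulum, was lower on every Cy/+ array, at -0.26 (adjusted p = 0.0308). It did not pass without Cy/+ replicate 2 or 3 or without any one of the +/+ arrays, at -0.27 to -0.21 (adjusted p = 0.0754 to 0.0869). Vmp1, another scramblase, varied most among the Cy/+ kidneys, with signals of 958, 917 and 806.5 in +/+ and 1302, 756 and 968 in Cy/+ kidneys, and Atg9a, the scramblase of the seed vesicles, stood at -0.036 (adjusted p = 0.686). For Vmp1 the log2 fold change was 0.14 (adjusted p = 0.529), and it was -0.060 without Cy/+ replicate 1.

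Among the 9 tested genes of the conjugation systems, 5 were lower in Cy/+ kidneys and 1 was higher, and the median log2 fold change was -0.26. These are 55.6% and 11.1%, against 29.3% and 37.4% of all genes. The lower genes were Atg3, Atg12, Atg10, Atg4a and Atg5. Atg3, the enzyme that transfers LC3 to lipid, had signals of 1265, 1275 and 1173 in +/+ and 1016, 812 and 722 in Cy/+ kidneys and a log2 fold change of -0.56 (SE 0.13, adjusted p = 0.00765). The ubiquitin-like protein Atg12 had signals of 941, 951 and 955 in +/+ and 697, 783 and 711 in Cy/+ kidneys, a log2 fold change of -0.38 (SE 0.080, adjusted p = 0.00446). Both genes lay below +/+ on every Cy/+ array and passed under all 19 alternatives. Atg10, which joins ATG12 to ATG5, stood at -0.36 (adjusted p = 0.0269), and Atg5 at -0.26 (adjusted p = 0.0357). The protease Atg4a, which trims LC3 and GABARAP proteins before conjugation, had signals of 500.1, 509 and 512 in +/+ and 435, 341 and 441 in Cy/+ kidneys, a log2 fold change of -0.33 (SE 0.12, adjusted p = 0.0387). These last calls were less stable. Without any one of the +/+ arrays Atg10, Atg4a and Atg5 no longer passed. The same held for Atg4a and Atg5 without Cy/+ replicate 2, and for Atg5 without Cy/+ replicate 3. In these fits the adjusted p was 0.0663 to 0.0914 for Atg10, 0.0682 to 0.103 for Atg4a and 0.0649 to 0.115 for Atg5, and their log2 fold changes were -0.38 to -0.33, -0.34 to -0.21 and -0.28 to -0.21.

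The one conjugation gene above +/+ that passed was Atg16l1, the partner of the ATG12 and ATG5 pair, at 0.20 (adjusted p = 0.0444), with all Cy/+ values above +/+. It did not pass when any 1 of the 6 arrays was left out (adjusted p = 0.0501 to 0.143, log2 fold change 0.20 to 0.22) or under either other scaling. Of the genes that did not pass, the protease Atg4b had signals of 404.5, 421 and 380.5 in +/+ and 359.8, 379.8 and 386 in Cy/+ kidneys, a log2 fold change of -0.099 (adjusted p = 0.328). Atg4d had signals of 578, 608 and 561 in +/+ and 441, 483 and 556 in Cy/+ kidneys, a log2 fold change of -0.24 (adjusted p = 0.0747), with all 3 Cy/+ values below +/+. Without Cy/+ replicate 3, the closest to +/+, Atg4d passed at -0.33 (adjusted p = 0.0232). Atg7, the activating enzyme of both systems, stood at 0.17 (adjusted p = 0.151), and at 0.25 without Cy/+ replicate 1 (adjusted p = 0.0304). With quantile normalization or median centring 6 genes of the conjugation systems were lower and none was higher. After Benjamini-Hochberg adjustment of the methods' per-probe-set test 3 were lower, without Cy/+ replicate 2 also 3, and without any one of the +/+ arrays 2.

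**Figure D2:**
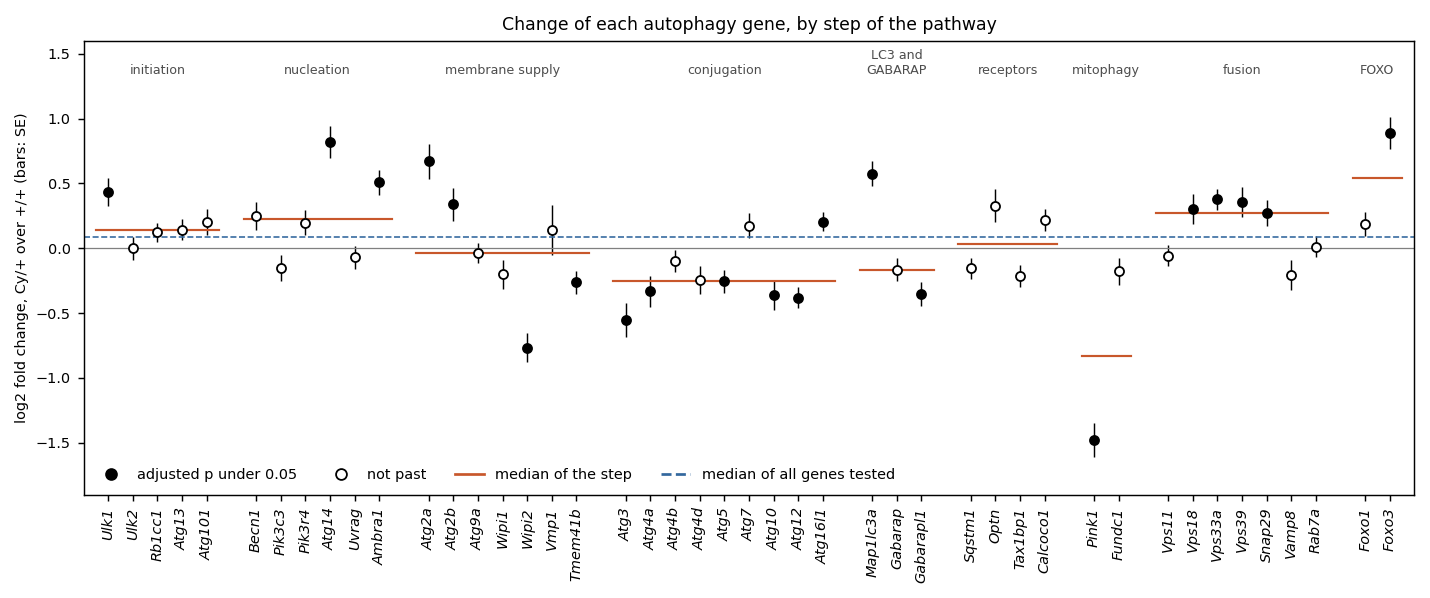
Log2 fold change, Cy/+ over +/+, of each of the 45 tested autophagy genes with its standard error, by step of the pathway (filled, adjusted p under 0.05; open, not past; solid lines, median of the step; dashed line, median of all genes tested). The conjugation genes have a median of -0.26, the nucleation genes of 0.22 and the fusion genes of 0.27.

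Of the LC3 and GABARAP family, the proteins that are attached to the membrane and bind the receptors, Map1lc3a was higher in Cy/+ kidneys and Gabarapl1 was lower. Each is 33.3% of the 3 tested genes, against 37.4% higher and 29.3% lower over all genes. Map1lc3a had signals of 1334, 1435 and 1330 in +/+ and 1862, 2276 and 1980 in Cy/+ kidneys, an average rise of 1.49-fold, with a log2 fold change of 0.57 (SE 0.096, adjusted p = 0.00154). Its call held under all 19 alternatives. Gabarapl1 had signals of 4271, 4210 and 4019 in +/+ and 3539, 2892 and 3390 in Cy/+ kidneys, a log2 fold change of -0.35 (SE 0.094, adjusted p = 0.0127). The Cy/+ values of Map1lc3a lay above, and those of Gabarapl1 below, all +/+ values. Gabarapl1 did not pass with quantile normalization, and without +/+ replicate 1 it stood at -0.33 (adjusted p = 0.0513). Gabarap, among the brightest of the autophagy genes, had signals of 4969, 5351 and 4834 in +/+ and 4962, 4270 and 4307 in Cy/+ kidneys, which overlapped. It stood at -0.16 (adjusted p = 0.134), at -0.23 without Cy/+ replicate 1 (adjusted p = 0.0291), and at 0.067 with quantile normalization.

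Map1lc3b and Gabarapl2 were measured only by probe sets that the annotation shares with a near-identical gene, so their values are uncertain and stay outside the counts. The probe set shared by Map1lc3b and Map1lc3b2 had signals of 2124, 1883 and 1759 in +/+ and 942, 686 and 801 in Cy/+ kidneys. It was lower on every Cy/+ array, at -1.26 (SE 0.13, adjusted p = 0.000203), the opposite direction to Map1lc3a. A pair of probe sets shared by Gabarapl2 and Gabarapl3 stood at -0.32 (adjusted p = 0.0314) and -0.28 (adjusted p = 0.0783), the first of which passed.

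None of the 4 tested receptor genes passed the test. Of all genes tested 37.4% were higher and 29.3% lower. Sqstm1, which encodes the ubiquitin-binding receptor p62, was the brightest member in +/+ kidneys, with signals of 5375, 5194 and 4985 in +/+ and 5051, 4395 and 4534 in Cy/+ kidneys. The values overlapped, and the log2 fold change was -0.16 (SE 0.081, adjusted p = 0.125), and 0.068 with quantile normalization. It passed without Cy/+ replicate 1, at -0.22 (adjusted p = 0.0334). The dimmer probe set of Sqstm1 had signals of 2358, 2144 and 2060 in +/+ and 987, 1050 and 1189 in Cy/+ kidneys, and was lower at -1.03 (adjusted p = 0.000135). The 2 tested probe sets of this gene therefore gave different calls. Optn, a receptor for mitochondria and bacteria, stood at 0.33 (adjusted p = 0.0534), Calcoco1, a receptor for the endoplasmic reticulum, at 0.22 (adjusted p = 0.0545), and Tax1bp1, a receptor for protein aggregates, at -0.21 (adjusted p = 0.0585). These lay just outside the threshold. Optn passed without Cy/+ replicate 1 (log2 fold change 0.46, adjusted p = 0.00238), and Calcoco1 (0.27, adjusted p = 0.0360) and Tax1bp1 (-0.25, adjusted p = 0.0481) without Cy/+ replicate 3. The dimmer probe set of Optn lay the other way, with signals of 299, 287 and 273 in +/+ and 145, 175 and 216 in Cy/+ kidneys. It was lower at -0.70 (adjusted p = 0.00501). Nbr1, a receptor related to p62, shares its probe sets with NBR1l1. The brighter one stood at -0.24 (adjusted p = 0.107) and the dimmer at -1.26 (adjusted p = 0.000221).

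Of the genes of mitophagy, the removal of mitochondria, Pink1 was lower in Cy/+ kidneys. Its signals were 2500, 2521 and 2569 in +/+ and 767, 882 and 1104 in Cy/+ kidneys, so that even the highest Cy/+ value was less than the lowest +/+ value by more than the spread within either genotype. The signal averaged 2530 in +/+ kidneys, with an SD of 35.4, and 918 in Cy/+ kidneys, with an SD of 171 (n = 3 for each), a fall of 2.79-fold and a log2 fold change of -1.48 (SE 0.13, adjusted p = 0.000103). The call held under all 19 alternatives. Fundc1, a receptor of the outer mitochondrial membrane, stood at -0.18 (adjusted p = 0.168) with overlapping arrays, and at -0.26 without Cy/+ replicate 1 (adjusted p = 0.0391).

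Of the 7 tested genes of fusion with the lysosome, 4 rose in Cy/+ kidneys, 3 did not pass, and the median change was 0.27 on the log2 scale. Over all genes 37.4% were higher. The group kept neither its count nor its direction when all probe sets of a gene were averaged, with 2 higher, 2 lower (Vps33a and Rab7a) and a median of -0.17, and without probe sets shared by transcripts the median was 0.013. Vps33a and Vps39 had the largest changes. Both, like Vps18, encode subunits of the HOPS complex, which tethers vesicles to the lysosome. Vps33a had signals of 260.5, 279.6 and 259 in +/+ and 343, 357 and 337 in Cy/+ kidneys, a log2 fold change of 0.38 (SE 0.084, adjusted p = 0.00582). Vps39 had signals of 259, 249.9 and 251 in +/+ and 279.5, 346 and 352 in Cy/+ kidneys, a log2 fold change of 0.36 (SE 0.11, adjusted p = 0.0255). Vps18 stood at 0.31 (adjusted p = 0.0487) and the SNARE Snap29, which pairs with syntaxin 17, at 0.27 (adjusted p = 0.0459). In all 4 genes every Cy/+ value lay above every +/+ value. Vps18, Vps39 and Snap29 did not pass without Cy/+ replicate 2 or 3 or without any one of the +/+ arrays. Their log2 fold changes were then 0.20 to 0.36, 0.30 to 0.37 and 0.18 to 0.32, with adjusted p of 0.0519 to 0.163, 0.0650 to 0.0812 and 0.0511 to 0.133. With median centring 1 of the 7 genes, Vps33a, was higher, and with quantile normalization 2 were, Vps33a and Rab7a, the latter at 0.22 (adjusted p = 0.0235). The tether subunit Vps11 (-0.056, adjusted p = 0.559), the SNARE Vamp8 (-0.21, adjusted p = 0.145) and the small GTPase Rab7a (0.013, adjusted p = 0.894) did not pass, and Vamp8 lay below +/+ on every Cy/+ array.

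The calls of Vps33a and Snap29 depended on the probe set. The brightest probe set of Vps33a was 1 of 4 tested for the gene. Of the other 3, one had signals of 325, 321 and 323 in +/+ and 188, 236 and 254 in Cy/+ kidneys and was lower, at -0.53 (adjusted p = 0.00801), a second was lower with a Cy/+ mean under the testing threshold, and the third stood at -0.17 (adjusted p = 0.232). The brightest probe set and both lower ones can bind several transcripts, as their design marks them, and without such probe sets Vps33a stood at -0.17 and did not pass. The dimmer probe set of Snap29 was lower, with signals of 98.6, 115 and 90.3 in +/+ and 61.5, 69.2 and 67.3 in Cy/+ kidneys, the latter below the testing threshold.

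The promoters of the autophagy genes were searched for CACGTG, the core of the E-box to which TFEB, the main activator of lysosomal and autophagy genes, binds. The longer motif TCACGTGA contains this core and therefore overlaps with it. Windows of 300 bases around the start site, 250 before and 50 after, were taken from RefSeq (GRCr8) and found for 44 of the 50 genes, not for Atg9a, Rb1cc1, Becn1, Fundc1, Foxo3 and Map1lc3a. TCACGTGA, which reads the same on both strands, was present in the windows of Snap29, Vps33a, Atg3 and Vps11, or 9.09% of the 44, against 0.777% of all 33469 windows, and the core also in Atg14, Atg5 and Pink1, or 15.9% in all, against 6.42%. The shares of members count genes, whereas those of all windows count every window and are not limited to the genes tested here. GTAAACA, a forkhead motif bound by FOXO proteins, was searched on both strands and was in none of the 44 windows and in 3.78% of all. The 4 windows with TCACGTGA are printed 5′ to 3′ on the strand of the gene. Among them are those of Snap29 and Vps33a, fusion genes whose higher calls depended on the probe set. Capitals mark every CACGTG, with the flanking bases where they complete the longer motif.
Snap29 (chr11:97113146-97113445, - strand): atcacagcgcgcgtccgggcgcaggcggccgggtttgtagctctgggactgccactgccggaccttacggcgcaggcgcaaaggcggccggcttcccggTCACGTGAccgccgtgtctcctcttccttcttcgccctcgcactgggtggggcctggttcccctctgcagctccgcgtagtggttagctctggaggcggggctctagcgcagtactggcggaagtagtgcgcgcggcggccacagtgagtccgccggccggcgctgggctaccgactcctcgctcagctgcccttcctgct
Vps33a (chr12:38685274-38685573, + strand): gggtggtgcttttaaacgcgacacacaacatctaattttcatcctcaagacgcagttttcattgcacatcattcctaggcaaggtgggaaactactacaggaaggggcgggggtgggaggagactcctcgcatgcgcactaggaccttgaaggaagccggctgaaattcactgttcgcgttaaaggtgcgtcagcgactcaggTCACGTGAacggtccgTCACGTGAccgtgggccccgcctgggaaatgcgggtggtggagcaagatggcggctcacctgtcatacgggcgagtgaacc
Atg3 (chr11:69159231-69159530, - strand): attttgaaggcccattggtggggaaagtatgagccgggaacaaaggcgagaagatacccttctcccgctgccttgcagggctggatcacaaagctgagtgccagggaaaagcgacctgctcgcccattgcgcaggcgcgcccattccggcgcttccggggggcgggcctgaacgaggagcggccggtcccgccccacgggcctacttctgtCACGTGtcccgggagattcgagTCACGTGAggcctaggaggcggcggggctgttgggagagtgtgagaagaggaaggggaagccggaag
Vps11 (chr8:53595328-53595627, - strand): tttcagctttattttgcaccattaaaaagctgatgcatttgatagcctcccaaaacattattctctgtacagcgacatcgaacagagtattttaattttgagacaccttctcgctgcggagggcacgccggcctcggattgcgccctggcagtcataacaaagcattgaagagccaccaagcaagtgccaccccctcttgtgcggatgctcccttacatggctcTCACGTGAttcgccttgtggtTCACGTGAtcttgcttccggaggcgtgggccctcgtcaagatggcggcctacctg
The 4 genes did not share a direction: Snap29 and Vps33a were higher at their brightest probe sets, Atg3 was lower, and Vps11 did not pass. The 3 genes with the core alone were split as well, with Atg14 higher and Atg5 and Pink1 lower. A match to these letters is a description of the window and does not show that a factor binds there.

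Foxo3 rose and Foxo1 did not pass. Both encode forkhead transcription factors that are held in the cytoplasm by AKT and, when nuclear, induce autophagy genes. Foxo3 had signals of 1182, 1391 and 1307 in +/+ and 2736, 2423 and 2063 in Cy/+ kidneys, a mean of 1293 ± 105 (SD, n = 3) in +/+ and 2407 ± 337 (SD, n = 3) in Cy/+ kidneys. The log2 fold change was 0.89 (SE 0.12, adjusted p = 0.000604), a rise of 1.85-fold. At this probe set every Cy/+ array lay above every +/+ array, and the call held under all 19 alternatives. A pair of dimmer probe sets of Foxo3, too weak to be tested, lay the other way. One had signals of 30.01, 31.33 and 34.85 in +/+ and 21.06, 23.15 and 24.93 in Cy/+ kidneys. The other had 27.4, 27.89 and 25.19 in +/+ and 23.29, 24.89 and 19.38 in Cy/+ kidneys. Foxo1 had signals of 718, 723 and 770.2 in +/+ and 825, 926 and 771 in Cy/+ kidneys and a log2 fold change of 0.19 (SE 0.094, adjusted p = 0.115). The lowest Cy/+ value of Foxo1 was only just above the highest +/+ value. A dimmer probe set of Foxo1 was lower, with signals of 121.5, 105 and 112 in +/+ and 51.8, 59.3 and 58.4 in Cy/+ kidneys, the latter below the testing threshold.

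The ratio of paralogous genes on the same array does not depend on a factor that multiplies all signals of the array alike. An effect that differs between probe sets need not cancel, and the part of the 3' to 5' differences given above was not tested. The ratio could be formed for 6 of 9 pairs planned. The 3 that could not be formed contain a gene without a probe set of its own. The log2 ratio of Ulk1 to Ulk2 was -0.60, -0.53 and -0.27 in +/+ and -0.16, -0.050 and 0.12 in Cy/+ kidneys, a difference of 0.43. That of Wipi1 to Wipi2 was -0.21, -0.12 and -0.23 in +/+ and 0.74, 0.24 and 0.16 in Cy/+ kidneys, a difference of 0.57. Foxo1 to Foxo3 gave -0.72, -0.94 and -0.76 in +/+ and -1.73, -1.39 and -1.42 in Cy/+ kidneys, a difference of -0.70. In these pairs, and in Atg2a to Atg2b with a difference of 0.33, the ratios of the genotypes lay apart (exact two-sided permutation test, p = 0.1, the smallest possible, and 0.15 adjusted over the 6 pairs). On the Cy/+ arrays the ratio was larger for Ulk1 over Ulk2, Atg2a over Atg2b and Wipi1 over Wipi2, and smaller for Foxo1 over Foxo3. The design cannot reach a p of 0.05, and for Ulk1 to Ulk2 the difference was -0.015 when all probe sets of a gene were averaged. The ratios of Gabarapl1 to Gabarap (-0.19) and of Atg4a to Atg4b (-0.23) overlapped between the genotypes (exact permutation test, p = 0.2 for each). Without Cy/+ replicate 2 the difference of Atg4a to Atg4b was -0.10.

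**Figure D3:**
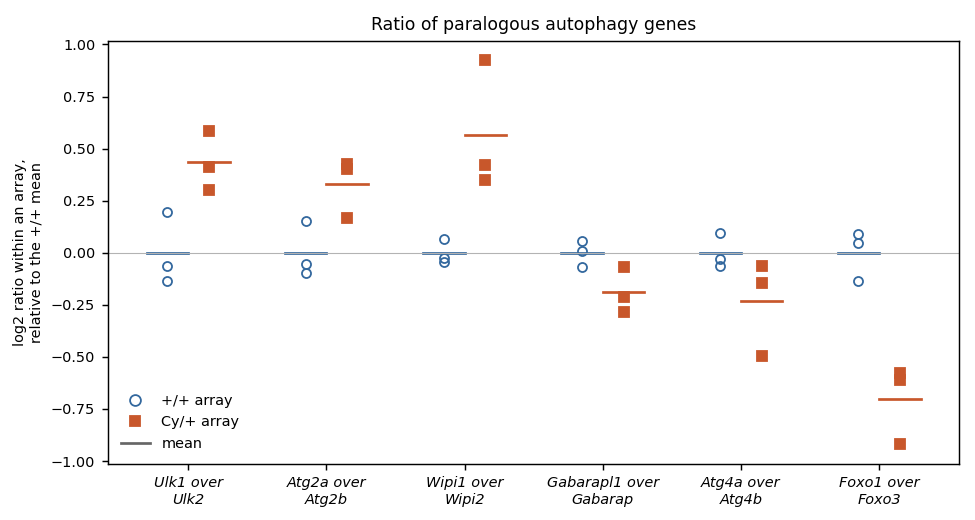
Log2 ratio of paralogous autophagy genes within each array, relative to the mean of the 3 +/+ arrays (circles, +/+; squares, Cy/+; lines, means). The genotypes lie apart for 4 of the 6 pairs and overlap for Gabarapl1 over Gabarap and Atg4a over Atg4b.

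Further probe sets of the same genes gave lower values in Cy/+ kidneys than the brightest ones did. There were 20 such tested probe sets, of 17 members, and 1 was higher, 13 were lower and 6 did not pass. That is 5.00% higher, against 24.3% of all 3713 further probe sets, and 65.0% lower, against 44.8%. Of the 13 lower ones, 3 (of Vps33a, Snap29 and Foxo1) had a Cy/+ mean under the testing threshold and were tested only because of their +/+ signals. Of the other 17 probe sets, 1 was higher and 10 were lower. Of the 20, 17 had a lower log2 fold change than the brightest probe set of their gene, or 85.0%, against 71.1% over all genes, with a median difference of -0.72, beside -0.48. The further probe set was called in the opposite direction in 5 cases, from Ulk1, Atg2b, Snap29 and Vps33a, or 25.0%, against 12.6% over all genes, and 2 of the 5 were among those with a Cy/+ mean under the testing threshold. Probe sets of one gene share its transcripts and are not replicates. Rab7a, which directs late endosomes and autophagosomes to the lysosome, had brightest signals of 3860, 3635 and 3513 in +/+ and 3997, 3528 and 3593 in Cy/+ kidneys. Its dimmer probe set had signals of 2632, 2539 and 2241 in +/+ and 1325, 1206 and 1268 in Cy/+ kidneys, a log2 fold change of -0.96 (adjusted p = 0.000117). For Rab7a the arrays thus overlapped on one probe set and lay far apart on the other. The gap was also wide for Optn (0.33 and -0.70), Atg12 (-0.38, -1.01 and -1.48), Gabarapl1 (-0.35 and -0.98) and Atg5 (-0.26 and -0.67). Atg12, Gabarapl1 and Atg5 were lower on each of these probe sets. The 3' to 5' control ratios given above differed between the genotypes on the same arrays, and their part in these gaps was not tested. When all tested probe sets of a gene were averaged, 9 members were higher and 13 lower.

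**Figure D4:**
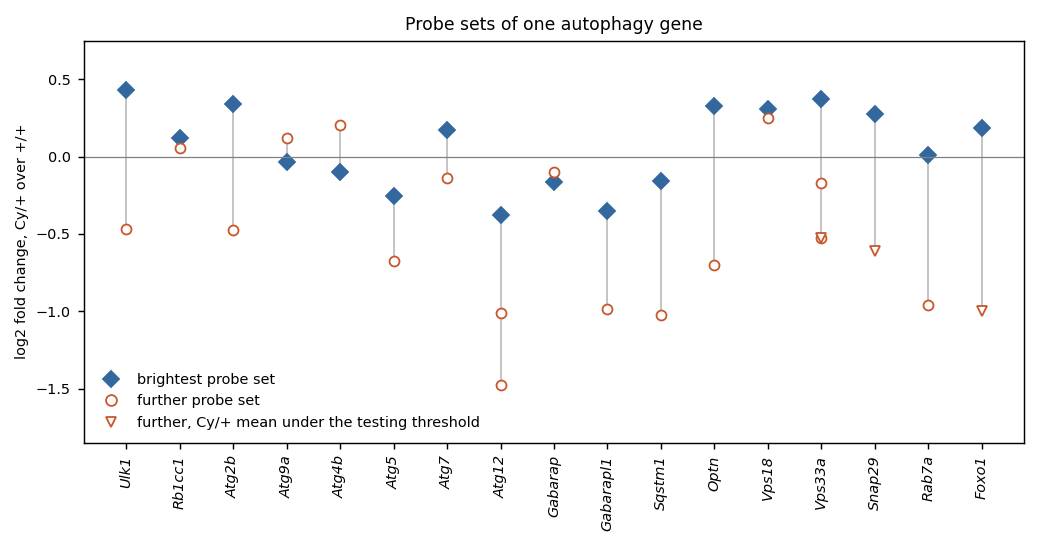
Log2 fold change, Cy/+ over +/+, of every tested probe set of the 17 autophagy genes with more than one (diamonds, brightest; open circles, further; open triangles, further with a Cy/+ mean under the testing threshold of 77.8; grey lines join the probe sets of a gene). For 17 of the 20 further probe sets the value lies below the diamond of the same gene.

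As over all genes, signals varied more among the Cy/+ than among the +/+ kidneys. The median SD of the log2 signal over 3 arrays was 0.062 in +/+ and 0.13 in Cy/+ kidneys, beside 0.083 and 0.16 for all genes, and it was wider in Cy/+ kidneys for 37 of the 45 members, or 82.2%. Over all genes this was so for 8327 of 10645, or 78.2%.

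Another 47 genes of autophagy, its selective receptors and its regulators were listed, of which 41 were tested. In Cy/+ kidneys 14 of these were higher, or 34.1%, 15 were lower, or 36.6%, against 37.4% and 29.3% of all genes, and the median log2 fold change was 0.091, near that of all genes. All of the 6 with the largest change among those past the threshold were lower. Tex264, a receptor for the endoplasmic reticulum, had a mean signal of 3025 ± 200 (SD, n = 3) in +/+ and 1072 ± 152 (SD, n = 3) in Cy/+ kidneys, a log2 fold change of -1.50 (SE 0.12, adjusted p = 6.88e-05). Retreg1, another receptor for the endoplasmic reticulum, stood at -1.10 (adjusted p = 0.000236), and Bnip3, a mitophagy receptor induced by hypoxia, at -1.39 (adjusted p = 0.000202). Sesn1, a sestrin that restrains mTORC1, stood at -1.27 (adjusted p = 3.09e-05), Wac, an adaptor needed for starvation-induced autophagy, at -1.02 (adjusted p = 5.80e-05), and Ykt6, a SNARE of autophagosome fusion, at -0.93 (adjusted p = 0.00101). On every Cy/+ array each of these genes lay below +/+. Tfeb and Tfe3, factors that bind the E-box described above and are named here after their values were seen, stood at 0.22 (adjusted p = 0.0601) and 0.12 (adjusted p = 0.238).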

How the data were processed

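RNA of 3 Cy/+ and 3 +/+ kidney samples was hybridized to rat oligonucleotide arrays, 1 per sample. The deposited values are linear signal intensities, 1 per probe set and array, and the labels name MAS5 as the authors' processing. Their scaling between arrays is not given in the sources used here, and detection calls were not used. Precision is limited by the 3 arrays per genotype.

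Signals were taken to log2 without a pseudocount. Control probe sets were left out, and probe sets with a mean log2 signal at or above the 40th percentile (6.28) were tested with limma 3.58.1 in R 4.3.3 (lmFit, eBayes with an intensity trend), Cy/+ against +/+, with Benjamini-Hochberg adjustment over the 18625 tested and a threshold of 0.05. Fold changes are ratios of geometric means. Platform symbols were updated through Entrez IDs with a table of GRCr8. Probe sets with several symbols were left out of the counts. The fit was tested on simulated data.

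The members and lists were chosen with earlier results of these data known. Values on every array are given for the 2 members with the largest change past the threshold in each step, for paralogous pairs and for Sqstm1, Becn1, Ulk1, Map1lc3b and Foxo1, and those of Vmp1 and of dimmer probe sets were added after they were seen. Of the other listed genes, the 6 with the largest change past the threshold are named. The alternatives were quantile normalization, median centring, array weights, a fit without intensity trend, the methods' t-test, a block for the replicate number, platform symbols alone, other filters (none, or the 60th percentile), a pseudocount of 16, averaging all probe sets per gene, dropping those shared by transcripts, and dropping each array in turn.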

Additional observations from a re-analysis of the deposited data

How the results depend on the processing

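Of the 21 autophagy genes past the threshold, 8 (Ambra1, Atg12, Atg2a, Atg3, Foxo3, Map1lc3a, Pink1 and Wipi2) kept their direction and passed under all 19 alternatives, as did Atg14 under the 18 in which it was tested. Among these genes only Atg12 had more than 1 tested probe set, so averaging probe sets could not change the log2 fold change of the others. Platform symbols alone changed neither log2 fold change nor adjusted p for Ambra1, Atg12, Atg14, Atg2a, Atg3, Foxo3, Map1lc3a and Pink1. Dropping probe sets shared by transcripts left their log2 fold changes the same. These settings are therefore weak checks of the calls. Another 10 of the 21 lost the call in the same direction under at least 1 alternative. Of these, Atg2b and Snap29 also turned under at least 1, as did Ulk1 and Vps33a, which lost the call in no other way. Of the 24 that did not pass, 15 did so under at least 1, including Foxo1 in the direction opposite to its main value. The count of higher members was 7 with median centring and 7 with the replicate block, and the count of lower members was 5 with the block, where 2 conjugation genes were lower and 1 fusion gene was higher. The t-test that the methods name in general, run here on each probe set, called 12 higher and 9 lower at an unadjusted p under 0.05. After Benjamini-Hochberg adjustment it called 10 and 7. Leaving out each array gave 7 to 14 higher and 4 to 13 lower members. Their median log2 fold change was 0.068 with quantile normalization, -0.056 with median centring, 0.038 without a filter, -0.014 with array weights and -0.071 with probe sets averaged per gene, and -0.018 to 0.050 when each array was left out. The count of all called features fell from 12491 probe sets to 7127 with probe sets averaged per gene, which tests 1 value per gene.

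With probe sets averaged per gene the log2 fold change turned to -0.068 for Atg2b, -0.41 for Foxo1, -0.47 for Rab7a, -0.17 for Snap29, -0.016 for Ulk1, -0.21 for Vps33a, -0.18 for Optn, 0.053 for Atg4b and 0.042 for Atg9a, and the difference between Ulk1 and Ulk2 to -0.015. Vps33a turned to -0.17 without probe sets shared by transcripts. Of the members that did not pass, Gabarap turned to 0.067 and Sqstm1 to 0.068 with quantile normalization. Rab7a rose to 0.22 and passed with quantile normalization, and turned to -0.056 with median centring, -0.027 with array weights, and lay between -0.042 and 0.050 when each array was left out, below 0 without Cy/+ replicate 1 or +/+ replicate 3 (-0.018). Ulk2 lay between -0.037 and 0.050, above 0 without Cy/+ replicate 3 or +/+ replicate 1 (0.040), and Vmp1 between -0.060, without Cy/+ replicate 1, and 0.33. The cause was not tested.

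Deviations from the group means correlated at 0.15, -0.11 and -0.15 between samples of the same replicate number, and not every sample correlated best with its own number. The highest values were 0.24, for Cy/+ replicate 3 with +/+ replicate 2, and 0.20, for Cy/+ replicate 2 with +/+ replicate 3. With 3 arrays per genotype the deviations are not independent, so these values cannot decide whether samples were paired, by number or otherwise.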
